A study of Mus musculus with 41 samples.

Results

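Runx2 expressed from a transgene in 3T3 fibroblasts was compared with Runx2 in rib chondrocytes, site by site. The comparison used all 50180 peaks of 3T3 Runx2 at day 3 and all 15390 peaks of chondrocyte Runx2, which together made 65570 of the 155773 peaks in the 8 lists of the series. The rule used no score: a chondrocyte Runx2 peak (called a site from here on) was counted as reached when a 3T3 Runx2 day 3 peak overlapped it by at least 1 bp, and as missed when none did. A missed site is one that the 3T3 list does not hold, which is not the same as a site without any Runx2.

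The 3T3 cells overexpressed tagged Runx2 (Runx2BioFL) and had spent 3 days in osteogenic medium, which is DMEM with 10% FBS and 3 additions: recombinant BMP-2 at 100 ng/ml, β-glycerophosphate at 10 mM and ascorbic acid phosphate at 50 μg/ml (1 library). Their companions were 3T3 cells with the same transgene at day 0 and 3T3 cells overexpressing GFP at day 0 and at day 3 (1 library each). The GFP cells at day 3 had the same 3 additions at the same doses, and none is given for the cells at day 0. The chondrocyte list came from 2 libraries of C57BL/6 mice at postnatal day 1 that carried 1 tagged Runx2 allele (Runx2-BioFL/+ knock-in). These cells were dissected from ribs by hand and digested, and no sorting is named for them, so the list is an average over the cartilage cells of the rib. Runx2 was precipitated through its FLAG tag in all of these cells, also in the GFP controls, which lack the tagged protein. Osteoblast Runx2 came from calvaria of the same knock-in genotype and age (2 libraries). Foxa2 came from rib chondrocytes, and Jun from calvarial osteoblasts, of wild-type C57BL/6 mice at postnatal day 1 (1 library each). The vector that drove Runx2 in 3T3 cells and its level are not given in the sources used here. Fibroblast and chondrocyte lists differ in cell type, in the source of Runx2 (a transgene or the tagged allele) and in the medium, and these cannot be told apart. All cells were assayed in bulk, so a site bound in few cells and one bound weakly in all cannot be told apart either.

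Runx2 is a DNA-binding factor of the runt-domain family that osteoblasts need in order to form, and in cartilage it takes part in the maturation of hypertrophic chondrocytes. Foxa2 is a forkhead factor, best known from liver and other endoderm as a factor that can bind closed chromatin, and it takes part with its relative Foxa3 in hypertrophic differentiation of chondrocytes. Jun is a subunit of AP-1, a factor found at open enhancers of many cell types, fibroblasts among them. 3T3 cells are an immortalized line of mouse embryonic fibroblasts, and BMP-2 is a growth factor that induces bone and cartilage formation.

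Each group had 1 list, so no value below has an error between animals or cultures, and no p-value is given. Shares carry Wilson 95% intervals and odds ratios carry 95% intervals. Both cover counting error over peaks only, and neighbouring peaks are not independent. A ratio is described as a difference only where its interval leaves out 1. The labels of 2 lists were crossed: the list named for 3T3 Runx2 day 0 was tied to the GFP day 3 sample, and the list named for GFP day 3 to the Runx2 day 0 sample. They are called by their list names here. The lists hold positions without scores or read counts, and sequencing depth is not given in the sources used here. The cell type labels could not be checked against marker genes, because the lists hold no expression values and no genes are annotated in them (build mm9).

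Forced Runx2 reached 8104 of the 15390 chondrocyte sites (52.7%, 51.9 to 53.4%) and missed 7286. By the same measure it reached 58.5% of the 10241 osteoblast Runx2 peaks, 38.0% of the 14937 Jun peaks and 10.8% of the 14738 Foxa2 peaks. The overlap rule itself limits how far the centre of a reached site can lie from that of its 3T3 peak. The smallest distance between the centre of the site and that of an overlapping 3T3 peak had a median of 45 bp. It was up to 50 bp at 53.7% of reached sites and over 150 bp at 8.37%. The 3T3 peaks on a site had a median width of 204 bp. A 3T3 peak enclosed the whole chondrocyte peak in 38.3% of cases. Of the reached sites, 7100 were overlapped by 1 peak of the 3T3 list and 1004 by 2 or more, and 5736 of the 3T3 peaks overlapped another peak of their own list. Reached and missed sites were of similar width, with medians of 134 bp and 138 bp. The reached share depended on the size of the 3T3 list: with its first 15390 peaks in file order, the number in the chondrocyte list, the share was 32.2%.

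Seen from the fibroblast side, 9252 of the 50180 peaks lay on a chondrocyte site (18.4%). The early part of the 3T3 list was rich in chondrocyte sites. Among its first 5018 peaks 56.6% (55.2 to 58.0%) lay on one, against 5.76% (5.15 to 6.44%) of the last 5018. Peaks on a chondrocyte site with Foxa2 did not thin out in this way, at 2.31% of the first part (1.93 to 2.77%) and 1.38% of the last (1.09 to 1.74%). Peaks on a chondrocyte site were also in the osteoblast Runx2 list in 43.6% of cases, against 7.45% of the 40928 other peaks. For Jun these shares were 27.1% and 9.96%, and for the list named for 3T3 Runx2 day 0 they were 82.4% and 44.3%. The list named for GFP day 3 held 28.3% of the peaks on a chondrocyte site and 13.1% of the others, and the GFP day 0 list 5.70% and 2.76%. A further 33902 peaks (67.6%) lay in none of the 4 lists from primary cells.

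How the lists were ordered is not given in the sources used here, but position in the chondrocyte list separated reached from missed sites. In the first of 10 equal parts 1090 of 1539 sites were reached (70.8%, 68.5 to 73.0%), and in the last 508 of 1539 (33.0%, 30.7 to 35.4%), with each part between them lower than the one before. With the 3T3 list shortened to 15390 peaks the shares were 56.3% in the first part and 8.51% in the last. After removal of peaks overlapping the GFP day 0 list or the list named for 3T3 Runx2 day 0, which the labels call GFP day 3, they were 23.5% (20.7 to 26.6%) and 16.0% (13.6 to 18.8%). The share of sites in common with osteoblast Runx2 also declined along the list, with 68.5% in the first part and 7.41% in the last. Over the 8104 reached sites, the position in the chondrocyte list and that of the earliest overlapping 3T3 peak had a Spearman rho of 0.45. Both lists were made from FLAG precipitations, and this value is a description across sites.

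Sites with Foxa2 were reached less often than sites without it at every position in the list. Foxa2 overlapped 2818 of the chondrocyte sites (18.3%), and 803 of these were reached (28.5%, 26.9 to 30.2%), against 7301 of the 12572 without Foxa2 (58.1%, 57.2 to 58.9%). Foxa2 sites were not gathered at the end of the list: they made up 30.4% of the first part and 15.5% of the last. Of missed sites with Foxa2, 50.3% stood in the first 50% of the list, against 32.6% of missed sites without Foxa2. In the first part, 50.4% of the 468 sites with Foxa2 were reached, against 79.7% of the 1071 without. In the last part the shares were 17.6% of 238 and 35.8% of 1301. Compared within the 10 parts, the odds ratio was 0.221 (0.201 to 0.244), lower than the pooled 0.288 (0.263 to 0.315). Single parts ranged from 0.179 in the fifth to 0.384 in the last, and the interval of each part left out 1. The direction held on 20 of 20 chromosomes, where the reached share with Foxa2 had a median of 27.5% and the share without Foxa2 a median of 58.6%. With the 3T3 list shortened to its first 15390 peaks the ratio within parts was 0.114. It was 0.529 (0.456 to 0.613) after peaks overlapping the GFP day 0 list or the list named for 3T3 Runx2 day 0, which the labels call GFP day 3, were removed.

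**Figure D1:**
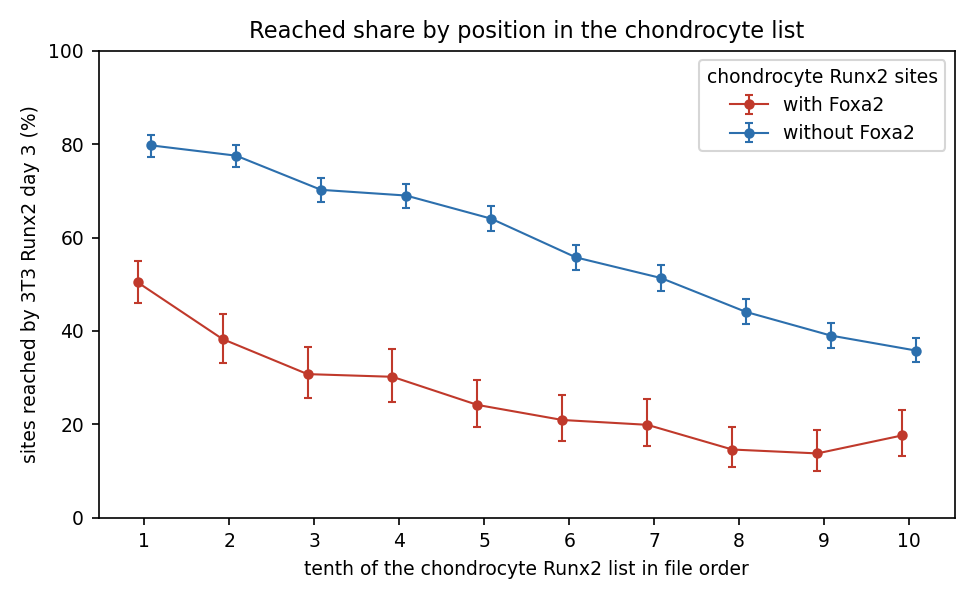
Share of chondrocyte Runx2 sites reached by 3T3 Runx2 at day 3 (vertical axis, %) in 10 equal parts of the chondrocyte list in file order (horizontal axis). Sites with Foxa2 are red and sites without it blue, with Wilson 95% intervals as bars. The red points run from 50.4% in the first part to 17.6% in the last and lie below the blue points, from 79.7% to 35.8%, in all 10 parts.

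The lower share extended a short way beyond direct overlap. Sites that did not overlap Foxa2 but had a Foxa2 centre within 1000 bp of their own were reached in 41.2% of 964 cases (38.1 to 44.3%). With the nearest Foxa2 centre 1000 to 10000 bp away the share was 56.4% of 2559 sites, at 10000 to 50000 bp it was 60.6% of 4458, and beyond 50000 bp 60.1% of 4591. Within the overlapping pairs the shares were close at every offset. The reached share was 27.2% (24.3 to 30.3%) where the centres lay within 25 bp, 28.0% at 25 to 75 bp and 30.7% (27.5 to 34.0%) beyond 75 bp, with overlapping intervals. Sites whose Foxa2 peak stood in the first of 3 equal parts of the Foxa2 list were reached in 30.6% of 1655 cases (28.5 to 32.9%). For the last part the share was 22.7% of 445 (19.1 to 26.8%). The shares by distance, by offset and by part of the Foxa2 list were not compared within parts of the chondrocyte list. Foxa2 peaks away from chondrocyte Runx2 were reached still less often: 781 of 2837 Foxa2 peaks on a chondrocyte Runx2 site (27.5%) and 809 of the 11901 others (6.80%) overlapped 3T3 Runx2 at day 3.

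Osteoblast Runx2 and Jun separated reached from missed sites as well. Sites in the chondrocyte list alone of the pair were reached in 4691 of 10782 cases (43.5%, 42.6 to 44.4%), against 3413 of 4608 for sites shared with osteoblast Runx2 (74.1%, 72.8 to 75.3%). Within the parts of the list the odds ratio was 0.360 (0.332 to 0.391), and the direction held on 20 of 20 chromosomes. It was 0.625 (0.537 to 0.728) after removal of GFP peaks under the exchanged labels. Chondrocytes came from ribs and osteoblasts from calvaria, so cell type and skeletal site cannot be told apart here. Sites with Jun were reached in 72.5% of 2745 cases, against 48.4% of 12645 without it, with an odds ratio of 2.44 (2.22 to 2.68) within parts. The Jun ratio was not taken within classes of Foxa2 or osteoblast Runx2, nor run under other settings. Without Foxa2, the shares with and without Jun were 65.7% and 46.5% of chondrocyte-only sites and 80.7% and 73.0% of shared sites. With Foxa2 they were 43.3% and 22.6% of chondrocyte-only sites. Of shared sites with Foxa2 they were 68.3% (56.0 to 78.4%) and 57.5% (52.2 to 62.7%), with overlapping intervals. The 3 properties divided the sites into 8 classes. Lowest stood the 2326 sites with Foxa2 that lacked both osteoblast Runx2 and Jun, of which 22.6% were reached (21.0 to 24.4%). Highest stood the 1363 sites without Foxa2 that had both osteoblast Runx2 and Jun, with 80.7% reached (78.5 to 82.7%). In each of the 4 combinations of osteoblast Runx2 and Jun the share was lower with Foxa2 than without it. The intervals of the 2 shares were apart in all 4, narrowly so where osteoblast Runx2 and Jun were both present (68.3%, 56.0 to 78.4%, of 63 sites with Foxa2 and 80.7%, 78.5 to 82.7%, without). The Foxa2 ratio within parts was 0.249 (0.223 to 0.279) among chondrocyte-only sites and 0.344 (0.274 to 0.432) among shared sites, whose difference was not tested. With osteoblast Runx2 and Jun added to the strata it was 0.284 (0.257 to 0.314) over all sites.

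**Figure D2:**
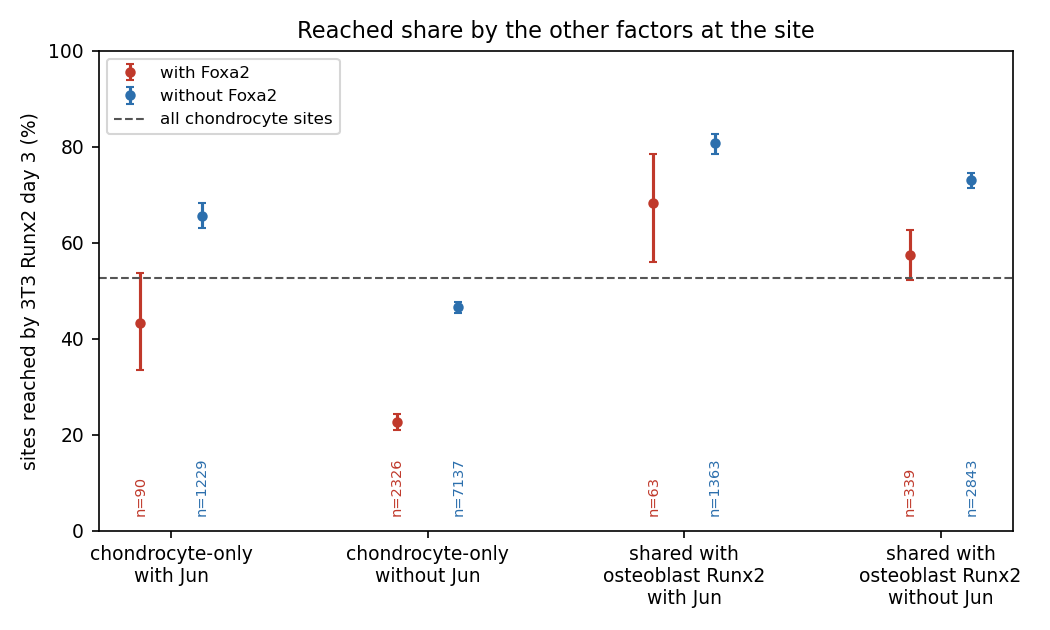
Share of chondrocyte Runx2 sites reached by 3T3 Runx2 at day 3 (vertical axis, %) in 8 classes set by Foxa2 (red with, blue without), osteoblast Runx2 and Jun (horizontal axis), with Wilson 95% intervals and the number of sites under each point. The dashed line marks the 52.7% of all sites. Of the 4 classes with Foxa2, 2 lie below the line, at 22.6% and 43.3%, and the lowest class without Foxa2 stands at 46.5%.

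With shared sites set aside, chondrocyte and osteoblast sites were reached at similar shares over whole lists, but not in their first and second parts. Chondrocyte-only sites were reached in 43.5% of cases and the 5616 osteoblast-only peaks in 44.8% (43.5 to 46.1%). The odds ratio was 0.950 (0.889 to 1.01), and 0.964 (0.902 to 1.03) within 10 parts of each list. In the first of 10 parts of each list the shares were 50.7% of 485 (46.3 to 55.1%) and 68.8% of 292 (63.3 to 73.9%). In the second they were 56.1% (52.5 to 59.6%) and 66.0% (61.3 to 70.4%). In the fourth they were 55.1% and 50.6%, and in the last 31.4% and 32.5%. Without any Foxa2 overlap in either class, 49.3% of 8366 chondrocyte-only sites and 44.9% of 5513 osteoblast-only peaks were reached. This gave an odds ratio of 1.19 (1.11 to 1.28), and of 1.29 (1.20 to 1.38) within 10 parts of each list. Foxa2 was precipitated from chondrocytes alone. Leaving out its sites took the chondrocyte-only class from 10782 to 8366 and the osteoblast-only class from 5616 to 5513. The 2416 chondrocyte-only sites with Foxa2 were reached in 23.4% of cases, so their removal raises the chondrocyte share by construction. No matching osteoblast factor was left out, so these ratios cannot rank the cell types. They were not run under other settings. The comparison over all chondrocyte-only sites depended on the lists: with the 3T3 list shortened to 15390 peaks the ratio was 0.802 (0.743 to 0.866), and after removal of peaks overlapping either GFP list by name from the chondrocyte, osteoblast and 3T3 Runx2 day 3 lists it was 0.993 (0.924 to 1.07).

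Foxa2 sites that were reached also stood later in the 3T3 list than other reached sites. The earliest 3T3 peak on a reached site with Foxa2 had a median position of 21135 among 50180, with quartiles of 10425 and 33492. For reached sites without Foxa2 the median was 10232, with quartiles of 3835 and 20997. The first of 10 parts of the 3T3 list held 13.6% of reached sites with Foxa2 and 31.0% of those without. Within chondrocyte-only sites the medians were 24335 with Foxa2 and 14860 without, so the gap was present there too. In the chondrocyte list the order was the reverse. The first 50% of that list held 73.7% of reached sites with Foxa2 and 59.9% of those without it. Missed sites had the same order there, at 50.3% with Foxa2 and 32.6% without, so it was not particular to reached sites.

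**Figure D3:**
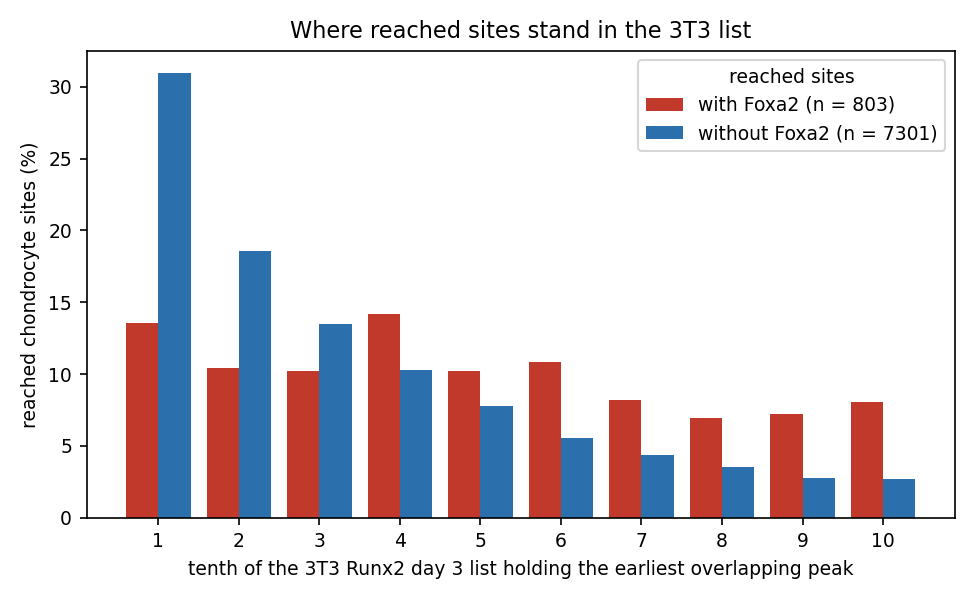
Reached chondrocyte Runx2 sites (vertical axis, % of 803 with Foxa2 in red and of 7301 without it in blue) by the part of the 3T3 Runx2 day 3 list, in file order, that holds their earliest overlapping peak (horizontal axis, 10 equal parts). The blue bars fall from 31.0% to 2.73%, while the red bars spread over the list, between 6.97% and 14.2%.

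By the names of the lists, most reached sites were already listed at day 0. Of the 8104 sites reached at day 3, 6510 (80.3%, 79.5 to 81.2%) were in the list named for 3T3 Runx2 day 0, and 1594 were not. Among reached sites with Foxa2, 296 of 803 were absent from the list named for day 0, against 1298 of 7301 without Foxa2. The share of reached sites in the list named for day 0 was 63.1% (59.7 to 66.4%) with Foxa2 and 82.2% (81.3 to 83.1%) without. The list named for day 0 lacked 2204 sites with Foxa2, of which the day 3 list held 13.4%. It also lacked 5761 sites without Foxa2, of which the day 3 list held 22.5% (odds ratio within parts 0.470, 0.407 to 0.542). Sites of the list named for day 0 were also in the day 3 list in 82.6% of 614 cases with Foxa2 and 88.1% of 6811 without. Neither list held 1908 of the 2818 sites with Foxa2 and 4463 of the 12572 without. With the list named for GFP day 3 read as 3T3 Runx2 day 0, as the labels have it, 21.2% of reached sites were held at day 0. The share was then 2.37% with Foxa2 and 23.3% without. The other comparisons of the days were not run under that reading.

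The GFP lists, where no tagged Runx2 is present if their names are right, also held chondrocyte sites. GFP day 0 overlapped 4.41% of reached sites (3.98 to 4.87%) and 1.14% of missed sites (0.920 to 1.41%). The list named for GFP day 3 overlapped 21.2% of reached and 5.20% of missed sites. It overlapped 19 of the 803 reached (2.37%) and 4 of the 2015 missed sites with Foxa2. Without Foxa2 it overlapped 1700 of the 7301 reached (23.3%) and 375 of the 5271 missed sites (7.11%). With peaks overlapping either GFP list by name removed, 46.0% of the 13114 remaining sites were reached, and the Foxa2 ratio within parts was 0.291 (0.264 to 0.321). With removal by the exchanged labels, 17.8% of 7867 were reached.

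The distance of missed sites to 3T3 peaks spread widely. The nearest 3T3 Runx2 day 3 peak lay a median of 10653 bp from the edge of a missed site. It lay within 250 bp of 995 of the 7286 missed sites (13.7%) and within 10000 bp of 3555 (48.8%, 47.6 to 49.9%). That share depended on the 50180 peaks of the 3T3 list: it was 23.9% with the list shortened to 15390 peaks and 31.8% after removal of GFP peaks under the exchanged labels. Missed sites with Foxa2 lay farther away, with a median of 15933 bp (n = 2015), against 9120 bp without Foxa2 (n = 5271). A 3T3 peak stood within 1000 bp of 13.6% (12.2 to 15.2%) of missed sites with Foxa2 and of 27.0% (25.8 to 28.2%) of those without.

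Where forced Runx2 had many other peaks nearby, a larger share of chondrocyte sites was reached. Other peaks were counted where their centre lay 1000 to 50000 bp from that of the site. Reached sites had a median of 5 such peaks and missed sites of 3. Among 627 sites with Foxa2 and no other peak nearby, 9.09% were reached (7.08 to 11.6%), against 50.1% (45.6 to 54.6%) of the 463 with 10 or more. Without Foxa2 the shares were 35.3% of 1948 sites with no other peak and 69.7% of 2429 with 10 or more. Sites with Foxa2 had fewer such neighbours, a median of 3 against 4 for the others, but the Foxa2 ratio within classes of this count and parts of the list was 0.221 (0.200 to 0.244). Reach and neighbours came from the same 3T3 list, so their relation is a description of that list.

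**Figure D4:**
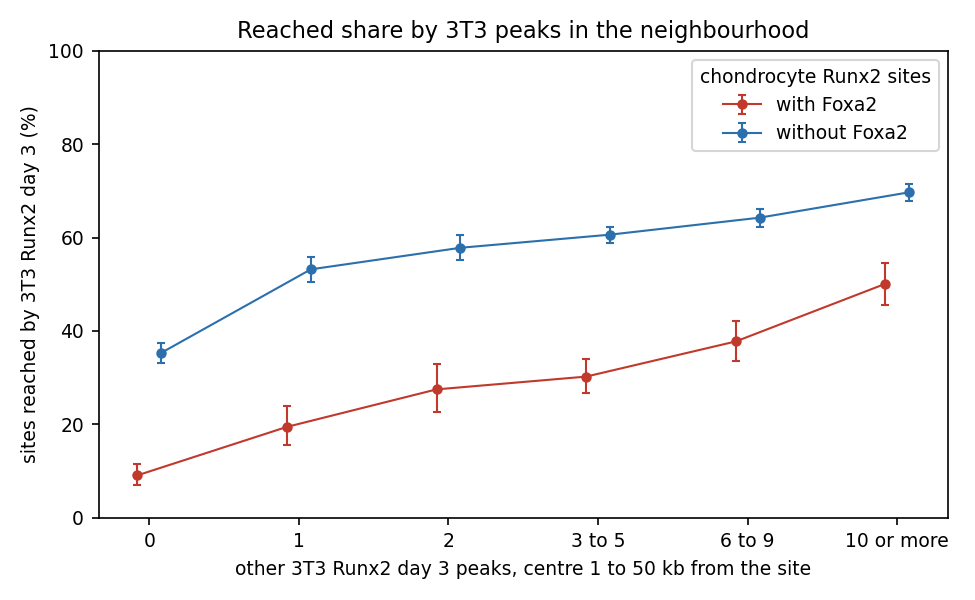
Share of chondrocyte Runx2 sites reached by 3T3 Runx2 at day 3 (vertical axis, %) by the number of other 3T3 Runx2 day 3 peaks with a centre 1 to 50 kb from that of the site (horizontal axis). Sites with Foxa2 are red and sites without it blue, with Wilson 95% intervals. Both rise along the axis, with Foxa2 between 9.09% and 50.1% and without it between 35.3% and 69.7%.

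Sites were joined to domains where the gap to the next site was at most 12.5 kb. This gave 9405 sites alone, 1725 domains of 2 sites, 623 of 3 or 4 and 85 of 5 or more, which held 499 sites. Domains of 5 or more sites and sites alone were reached at similar shares. In domains of 5 or more 52.3% of sites were reached (47.9 to 56.7%), and of sites alone 52.3% (51.3 to 53.3%), with an odds ratio of 0.999 (0.831 to 1.20) and of 1.05 (0.873 to 1.27) within parts of the list. The direction of this ratio changed with the settings, and the interval held 1 in each. Within sites with Foxa2 the share was higher in domains of 2 or more: 32.8% of these 1195 were reached (30.2 to 35.5%), against 25.3% of the 1623 alone (23.3 to 27.5%), with an odds ratio of 1.36 (1.14 to 1.61) within parts. Without Foxa2 the same ratio was 1.08 (1.00 to 1.17), with a lower bound just above 1. The difference between these ratios was not tested. The cut at 2 or more sites was not planned, and these ratios were not run under other settings.

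Neighbouring sites were often reached or missed together. After a reached site, the next site within 12.5 kb was reached in 60.3% of 1903 cases, and after a missed site in 43.2% of 1649 (odds ratio 2.00, 1.74 to 2.29). Between neighbours over 50000 bp apart the shares were 55.9% and 46.7% (odds ratio 1.45, 1.32 to 1.58), and the difference between the ratios was not tested. Where both neighbours within 12.5 kb had Foxa2, the shares were 43.7% of 71 after a reached site and 20.8% of 144 after a missed one. Where neither had Foxa2, they were 63.1% of 1443 and 50.8% of 911. Over 50000 bp apart, they were 24.6% of 61 and 21.1% of 232 with Foxa2 at both, and 61.4% of 3014 and 52.9% of 2250 without it at either. The odds ratios between neighbours were not taken within Foxa2 classes. Of the 85 domains of 5 or more sites, 9 had every site reached, 6 had none reached, and 70 (82.4%) held both kinds. A domain with more sites holds both kinds more easily by construction. The share was 40.2% in domains of 2 sites and 69.8% in those of 3 or 4. It was not compared with the share that independent sites would give. Inside the mixed domains of any size, 37.0% of 621 sites with Foxa2 and 55.0% of 2620 without it were reached. Compared within each such domain, the odds ratio was 0.501 (0.411 to 0.610).

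The domain with the most chondrocyte sites lay at chr2:32720382-32776993 (mm9). It held 14 sites over 56.6 kb, of which 8 were reached and 1 had Foxa2. Another, at chr2:164257004-164275397, had 5 of 10 sites reached and the earliest member at position 154 of the chondrocyte list. At chr7:124614142-124661500, 3 of 10 sites were reached, and Foxa2 lay at 4 sites, of which 1 was reached. At chr17:27671829-27702885, 6 of 10 sites were reached and none had Foxa2. At chr11:70465011-70483016, 4 of 8 sites were reached, 7 of the 8 had Jun and none had Foxa2.

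The domain at chr15:97824407-97864660 had 3 of 10 sites reached and 3 with Foxa2. Its first 6 sites, within 10.9 kb of the start, were all missed, among them the site at position 67 of the chondrocyte list, the earliest of the domain. The reached sites lay 20.5, 31.7 and 40.2 kb from the start. The span held 11 peaks of 3T3 Runx2 day 3, of which 3 lay on a chondrocyte site, and 0 of the list named for day 0. Of the 85 dense domains, 5 had day 3 peaks and none of the list named for day 0, and the next highest of these held 3 day 3 peaks. This feature was singled out after its values were seen.

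All 7 sites were reached at chr6:108608404-108628082 and at chr9:69301390-69326023, where 1 and 2 sites had Foxa2. All 6 were reached at chr2:167391418-167416181, where none had Foxa2 and 3 were shared with osteoblast Runx2. No site of 5 was reached at chr1:24234354-24251943, at chr2:4879322-4908833 or at chr3:57352159-57359789. These 3 domains held 2, 3 and 4 sites with Foxa2, and none with osteoblast Runx2 or Jun. Neither 3T3 Runx2 day 3 nor the list named for day 0 had a peak within their spans. The earliest site of the chromosome 3 domain stood at position 402 of 15390. At chr6:8703029-8720283 all 4 sites had Foxa2, the earliest at position 272, and again neither 3T3 list had a peak in the span. These positions are given without gene names, since an mm9 annotation was not used here.

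**Figure D5:**
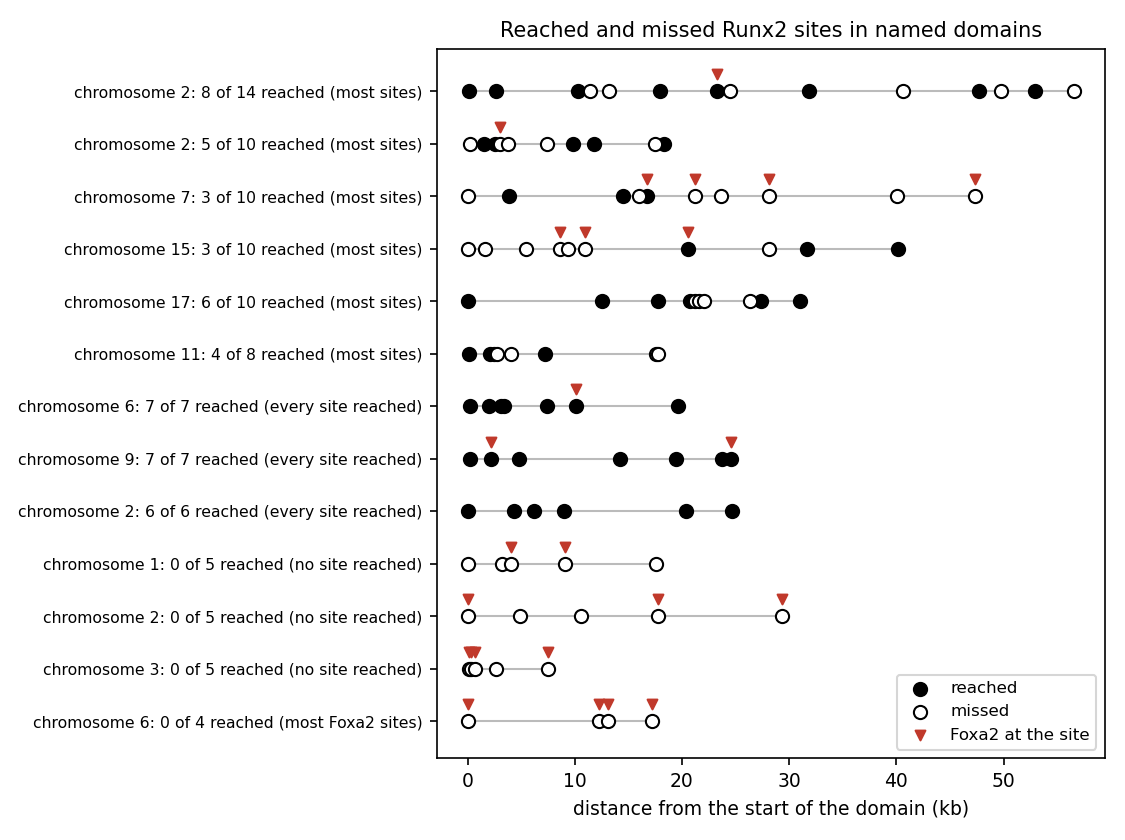
Named domains of chondrocyte Runx2 sites, each drawn from its start (horizontal axis, kb), with sites reached by 3T3 Runx2 at day 3 filled, missed sites open and Foxa2 marked by red triangles. The label gives the sites reached and, in brackets, the rule that picked the domain. The first 6 sites of the chromosome 15 domain are open, and the 4 lowest rows have no filled site.

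The first sites of the chondrocyte list differed in which other lists held them. Positions 1 and 6, at chr15:72399102-72399198 and chr15:84659990-84660081, were reached, carried Foxa2, osteoblast Runx2 and Jun, and lay in both GFP lists and the list named for day 0. The next reached site with Foxa2, at position 7 (chr2:33946241-33946331), lay in the same lists except the list named for day 0, and its peak stood at position 23838 of the 3T3 list. The first reached sites without Foxa2 were positions 2, 4 and 5, at chr9:21754919-21755015, chr7:6362911-6363009 and chr18:25826717-25826821, and each was in both GFP lists. Missed sites without Foxa2 began at position 3, at chr19:4989134-4989224, followed by positions 10 and 14, at chr13:55072386-55072464 and chr4:139814975-139815075. All 3 overlapped GFP day 0, and the last lay 278395 bp from the nearest 3T3 Runx2 day 3 peak. Of the first 100 sites of the list, 37 lay in GFP day 0, against 2.86% of all 15390. Osteoblast Runx2 was present at 96 of these 100, against 4608 of all 15390, and Jun at 44, against 17.8% of all. Foxa2 was present at 27 (19.3 to 36.4%), against 18.3% of all, and 70 were reached, against 52.7% of all.

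Missed sites with Foxa2 began later, at position 34 (chr13:29200176-29200288). That site lay 69739 bp from the nearest 3T3 Runx2 day 3 peak and had no other such peak within 50000 bp. The next, at position 44 (chr14:48865983-48866155), was 21264 bp from the nearest peak. The site that followed, at position 67 (chr15:97835295-97835407), belonged to the mixed domain described above and lay 2602 bp from a 3T3 peak, with 17 other peaks within 50000 bp. All 3 were shared with osteoblast Runx2, lacked Jun and were absent from both GFP lists and the list named for day 0.

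The reached share varied among the 20 chromosomes with sites. It was highest on chromosome 11, with 686 of 1134 sites (60.5%, 57.6 to 63.3%), and lowest on chromosome 13, with 301 of 695 (43.3%, 39.7 to 47.0%). On the X chromosome 74 of 161 sites were reached (46.0%, 38.4 to 53.7%), with 2 of 21 among those with Foxa2.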

How the data were processed

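The authors deposited 1 list of peak positions (chromosome, start and end, another unit than counts or signal) for each of 8 ChIP groups, without scores, as the deposited files show. Per the submitters' processing notes, the tools included Bowtie and DiffBind, with mm9 as the build. Which tool called the peaks, at what threshold and against which control, and how the 2 chondrocyte libraries were pooled, is not given in the sources used here. Depth is therefore unknown.

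Overlaps of at least 1 bp were computed with NumPy 2.4.6 and pandas 2.3.3 in Python 3.11.15 and checked against bedtools 2.31.1 (0 of 56 list pairs differed). Shares have Wilson intervals, odds ratios exact conditional intervals, and ratios within 10 parts of file order Mantel-Haenszel intervals (SciPy 1.17.1). The intervals of the ratios were tested on simulated data with planted ratios. The simulated sites were drawn independently, so that test does not cover the dependence between neighbouring peaks. Figures used matplotlib 3.10.9. Coordinates are 1-based. Members, classes and tests were chosen with earlier results of these data known. Regions named are the first 3 sites of 4 classes (reached or missed, with or without Foxa2), the 6 domains with the most sites, and the first 3 domains with every site reached, with none reached, and with the most Foxa2 sites. The planned motif and gene counts were not run, for lack of a sequence and an annotation of this build. ATAC-seq, input and IgG samples were not analysed here.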

Additional observations from a re-analysis of the deposited data

How the results depend on the processing

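The 5 ratios for Foxa2 and for chondrocyte-only against shared sites kept their direction, with intervals that left out 1, under every alternative run for them (0.114 to 0.625). The share of chondrocyte sites reached (52.7%) was 47.1% where 50% of the shorter peak had to overlap, 55.2% with centres within 250 bp, 32.2% with the 3T3 list at equal size, 55.9% in the first 50% of each list, 51.4% without GFP day 0 peaks, 46.0% without peaks of either GFP list by name and 17.8% with that removal under exchanged labels (chosen after seeing the data). In the same order, the share of 3T3 peaks on a chondrocyte site (18.4%) was 15.8, 19.9, 38.5, 20.8, 17.9, 15.1 and 6.03%. The share reached in the first part of the list (70.8%) was 66.4, 73.5, 56.3 and 64.0% under the first 4 of these, 63.6% without either GFP list and 23.5% under exchanged labels. That in the last part (33.0%) was 27.2% with 50% overlap, 8.51% at equal size, 45.3% in the first 50% and 16.0% under exchanged labels. The parts were made anew from each changed chondrocyte list. In the first 50%, the last part was 769 sites up to the middle of the whole list, so 45.3% and 33.0% describe different sites. Of reached sites, the share in the list named for day 0 (80.3%) was 78.4, 81.5, 92.5 and 81.9% under the first 4, 77.2% without either GFP list and 21.2% with the crossed list in its place. Of missed sites, the share within 10000 bp of a 3T3 peak (48.8%) was 54.2, 45.9, 23.9 and 34.0% under the first 4, 45.6% without either GFP list and 31.8% under exchanged labels. Removing peaks or shortening a list leaves fewer partners by construction. The odds ratio of chondrocyte-only against osteoblast-only peaks (0.950) was 0.802 at equal size, 0.806 in the first 50%, 1.03 with all peaks at 200 bp, 1.05 without GFP day 0 peaks, 1.50 without either GFP list and 2.18 under exchanged labels. In the last 3 the osteoblast list kept its own such peaks; with them removed from it too (chosen after seeing the data) the ratio was 0.963 for GFP day 0 and 0.993 for either list. The ratio for dense domains against sites alone (0.999) was 1.05 without either GFP list and 1.10 with gaps up to 25000 bp. Within parts (1.05) it was 0.979 with 50% overlap, 0.905 at equal size, 0.895 in the first 50%, 0.851 with gaps up to 5000 bp and 0.721 under exchanged labels, and the cause was not tested. Leaving out a replicate was not possible, since the chondrocyte libraries share 1 list. No paired analysis was possible because each group had 1 list and the lists carry no replicate numbers.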

Other observations

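With gaps of up to 25000 bp between neighbours, the domain with the most chondrocyte Runx2 sites lay on chromosome 7 (chr7:86035682-86199310, mm9, 163.6 kb). It held 21 sites, of which 6 were reached by 3T3 Runx2 at day 3, 3 were shared with osteoblast Runx2 and 6 had Foxa2. Of the sites with Foxa2, 1 was reached. The domain was singled out after its values were seen.

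Runx2 peaks of 3T3 cells at day 3 overlapped Foxa2 of chondrocytes in 8.93% of 9252 cases on a chondrocyte Runx2 site and in 1.95% of 40928 elsewhere (800 peaks). Foxa2 was precipitated from chondrocytes alone, and whether 3T3 cells express it was not measured in these lists.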
